A study of Mus musculus with 8 samples.

Results

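The genes described here are 10 transcripts of the mammalian circadian clock: the activator gene Clock, the repressor genes Per1, Per2, Per3, Cry1 and Cry2, the nuclear receptor genes Nr1d1 and Nr1d2, and the output factor genes Dbp and Tef. They were chosen by symbol from the 21240 genes of the count table, with earlier results of these data known. All 10 passed the filter on low counts that left 11835 genes for testing. The cells were NMuMG, a line of normal mouse mammary gland epithelium of wild-type genotype, and every library came from this 1 line. Cells received either the vehicle DMSO or BRM014, an inhibitor of the ATPases of the SWI/SNF chromatin remodelling complex (SMARCA4 and SMARCA2), for 6 h or for 30 h. Neither a dose of BRM014 nor a treatment to synchronise the cells' clocks is given in the sources used here. There were 2 libraries in each of the 4 groups, labelled as biological replicates. Nothing says that they came from separate passages, so the p-values measure only the spread between these libraries, which may be technical. The times lie 24 h apart, and from 2 time points no period, phase or amplitude can be read.

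In the clock, the proteins CLOCK and BMAL1 (gene Arntl) form a pair that binds E-box sequences and drives transcription of the Per, Cry, Nr1d, Dbp and Tef genes. PER and CRY proteins return to the nucleus and repress that pair. The NR1D proteins (REV-ERB) repress Arntl through a DNA element that the ROR receptors also bind. DBP and TEF activate genes through D-box sequences, where NFIL3 represses. The loop runs in nearly every cell type, mammary epithelium included, and the cells of a culture can drift out of phase with each other, so that a population mean need not show the rhythm of its cells.

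Libraries held 17859693 to 29955366 counts, and between 13286 and 13922 genes had at least 1 count in a library. Levels are given as CPM, the count of a gene scaled by the size of its library, with library sizes adjusted by the trimmed mean of M-values (TMM). The epithelial label was checked with 6 marker genes. The keratin genes Krt8 and Krt18 and the cadherin gene Cdh1 were at 250 CPM or more in each library, Krt7 was at or below 0.489 CPM, and Epcam and Cldn7 had no count in any library. Of 9 markers of leukocytes, endothelium, adipocytes and fibroblasts, the leukocyte gene Ptprc reached 0.109 CPM, the fibroblast gene Pdgfra 0.75 CPM, and the other 6 apart from Cd68 at most 0.161 CPM. Cd68, a lysosomal gene of macrophages, was at 6.96 and 7.95 CPM in DMSO at 6 h, 5.98 and 3.72 CPM in DMSO at 30 h, 3.64 and 5.16 CPM in BRM014 at 6 h and 2.35 and 2.09 CPM in BRM014 at 30 h. It was highest in DMSO at 6 h and lowest in BRM014 at 30 h, the groups where Dbp below was lowest and highest. Its part in the results was not tested.

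The promoters of Per1, Per3 and Cry1 are shown because each of these genes passed a test below and carries a clock element. The sequences are from RefSeq (build GRCm38.p6, whereas the counts were made on mm9) and run from 250 to 51 bases before the start site, 5′ to 3′ on the gene's strand. Capitals mark E-boxes (CACGTG), E′-boxes (CACGTT or its reverse complement AACGTG) and D-boxes (TTATGTAA).
Per1, plus strand, chr11:69098699-69098898: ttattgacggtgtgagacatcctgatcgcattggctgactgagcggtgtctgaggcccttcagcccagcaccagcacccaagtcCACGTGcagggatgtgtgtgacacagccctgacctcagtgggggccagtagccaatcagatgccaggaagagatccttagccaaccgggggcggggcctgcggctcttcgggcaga
Per3, minus strand, chr4:151044716-151044915: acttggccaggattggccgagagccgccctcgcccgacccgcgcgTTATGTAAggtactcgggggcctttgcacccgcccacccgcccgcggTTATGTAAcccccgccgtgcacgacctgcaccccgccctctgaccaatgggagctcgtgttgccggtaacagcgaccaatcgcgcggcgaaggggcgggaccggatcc
Cry1, minus strand, chr10:85185105-85185304: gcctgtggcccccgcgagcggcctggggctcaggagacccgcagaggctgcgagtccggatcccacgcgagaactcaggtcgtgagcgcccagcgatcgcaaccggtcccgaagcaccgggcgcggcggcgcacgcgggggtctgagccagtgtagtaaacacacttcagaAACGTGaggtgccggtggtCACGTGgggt

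Windows of 300 bases around the start site were present for 9 members, all but Per2, with 13 windows in all, and were searched on both strands. The E-box was found in 4 of the 13 windows, and 7.15% of all 32851 windows in the RefSeq table hold it. These were the windows of Cry1 and Tef and the upstream of 2 windows of Per1, from which the sequence above is taken. Cry1, Cry2 and Nr1d1 carried the E′-box, in 3 of the 13 windows, and 4.69% of all windows hold it. Per3 held 2 copies of the D-box, at positions -205 and -158 from its start site, and this motif is in 0.938% of all windows. The core of the ROR and REV-ERB element (TAGGTCA, in 2.61% of windows) and the cyclic AMP response element (TGACGTCA, in 1.79%) were not found in the members' windows. E-box and E′-box differ in 1 letter, so a site matches only 1 of them. A match describes letters only and does not show that a factor binds there.

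Per length of exon, 4 members stood above the other 6 in DMSO at 6 h. Levels in CPM per kilobase of GENCODE M21 exons were 15.7 ± 4.6 (SD, n = 2) for Nr1d1, 14.7 ± 0.311 for Tef, 13.3 ± 0.741 for Nr1d2 and 11.5 ± 1.22 for Clock. The level was 5.26 ± 0.145 for Cry1, 3.41 ± 0.114 for Per1 and 2.62 ± 0.0338 for Cry2. Dbp (1.75 ± 0.483), Per2 (1.73 ± 0.364) and Per3 (1.42 ± 0.216) were lowest. In this order the libraries of Nr1d1 and Tef overlapped, as did those of Dbp and Per2 and those of Per2 and Per3. The other neighbours did not overlap. By its mean, Dbp stood at rank 8 in DMSO at 6 h and at rank 7 in BRM014 at 6 h, where its libraries overlapped those of Cry2. At 30 h its mean stood at rank 5 in both DMSO and BRM014. In DMSO at 30 h its libraries, at 2.19 and 5.53 CPM per kilobase, lay below and above those of Cry1, Cry2 and Per1. That rank thus rests on the higher library. In BRM014 at 30 h, at 6.69 ± 0.93 CPM per kilobase, Dbp lay between Nr1d1 (8.43 ± 2.07) and Per1 (5.22 ± 0.434). There its libraries overlapped those of Nr1d1 and not those of Per1, and Clock overlapped Nr1d1 and Per1 overlapped Cry1. The annotation used for the authors' counting is not given, so these lengths may differ from the exons they counted.

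**Figure D1:**
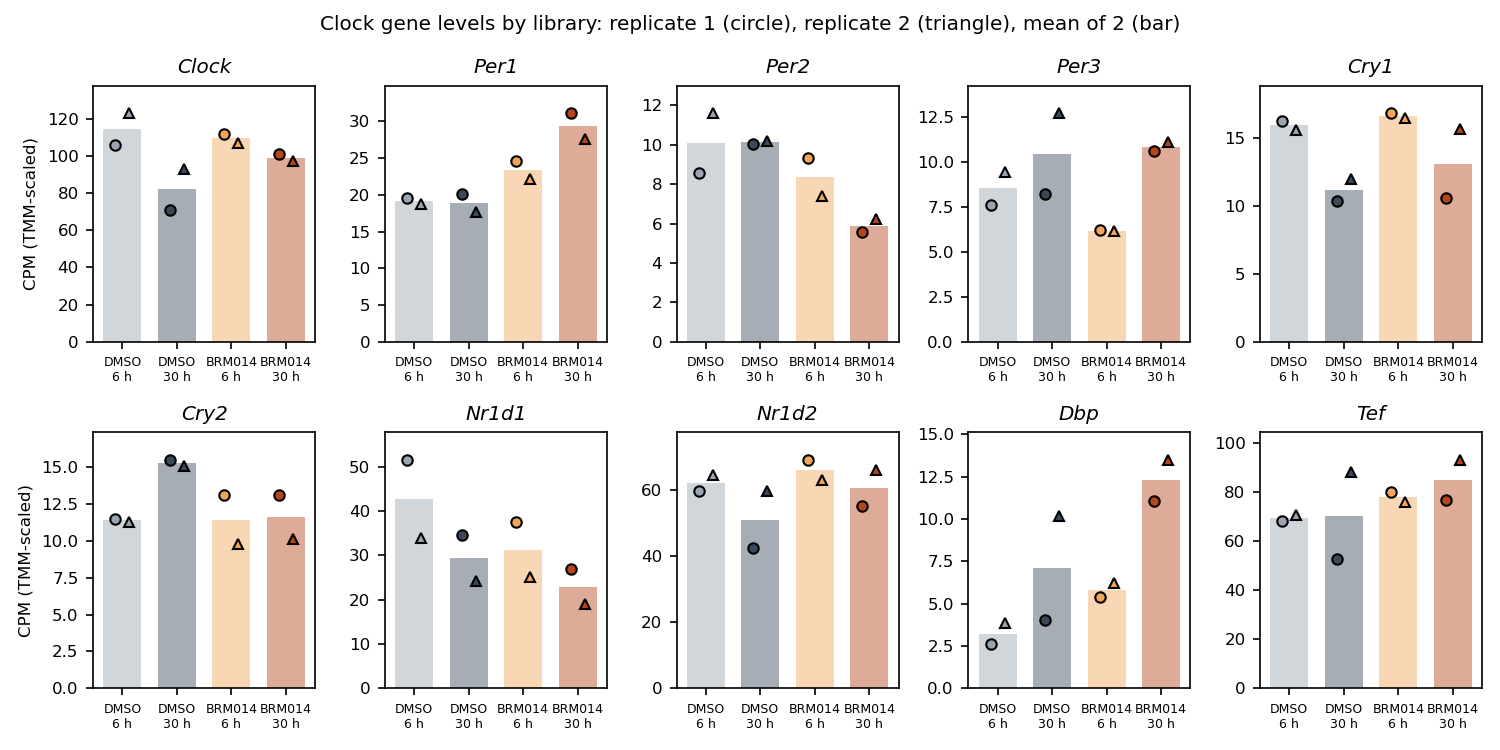
Level of each of the 10 clock genes in CPM (linear axis from 0, TMM-scaled) by group, with replicate 1 as a circle, replicate 2 as a triangle and the mean of the 2 as a bar. Dbp goes from 2.59 and 3.85 CPM at 6 h to 4.02 and 10.2 CPM at 30 h in DMSO. In BRM014 it goes from 5.39 and 6.22 CPM to 11.1 and 13.5 CPM. In Nr1d1, Per1 and Cry2 replicate 2 lies below replicate 1 in each group, and in Dbp it lies above.

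Between 6 h and 30 h in DMSO, the output gene Dbp rose and the activator gene Clock and the repressor gene Cry1 fell, while the other 7 members did not pass. Among the 11835 tested genes, 18.0% rose and 17.2% fell in this comparison, so 1 riser and 2 fallers among 10 members is a count near the share over all genes. Leaving out replicate 1 of DMSO at 6 h left 1 member called in place of 3. The median log2 fold change of the members was -0.01, beside 0.01 over all tested genes. All values are from 1 quasi-likelihood fit in edgeR with p-values adjusted over all tested genes, and each sets n = 2 libraries against n = 2. Of the genes that passed in DMSO, 51.2% were higher, and this share was 65.9% when libraries were scaled by their totals alone.

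Dbp encodes a PAR bZIP activator whose transcript is among the most strongly cycling in many tissues. It had 51 and 74 counts in DMSO at 6 h and 74 and 232 at 30 h, or 2.59 and 3.85 CPM against 4.02 and 10.2 CPM. The groups did not overlap, but the lower 30 h library lay close to the higher 6 h library. The change was 1.16 ± 0.35 on the log2 scale (± SE, adjusted p = 0.0226), which is 2.23-fold. The 2 libraries at 30 h differed beyond counting error, with exact Poisson 95% intervals of 58.1 to 92.9 and 203 to 264 counts. The change of Dbp was 0.35 (adjusted p = 0.417) once replicate 2 of DMSO at 30 h was left out. It was 0.92 (adjusted p = 0.159) once replicate 1 of DMSO at 6 h was left out, so the call rests on these libraries. It also ended with limma-voom (adjusted p = 0.0569) and with only the 4 libraries compared (adjusted p = 0.0586).

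Clock encodes the histone acetyltransferase partner of BMAL1. It was at 106 and 123 CPM in DMSO at 6 h and at 71.0 and 93.0 CPM at 30 h, with both late libraries below both early ones. Its change was -0.48 ± 0.12 (adjusted p = 0.00968). Leaving out replicate 2 of DMSO at 6 h gave Clock -0.38 (adjusted p = 0.0800), and leaving out replicate 1 of DMSO at 30 h gave -0.30 (adjusted p = 0.0735).

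Cry1, the cryptochrome repressor gene, was at 16.2 and 15.6 CPM at 6 h and 10.4 and 11.9 CPM at 30 h. The groups were well apart, and the change was -0.51 ± 0.18 with an adjusted p of 0.0466, just under the threshold of 0.05. That call is uncertain. It ended with library totals (-0.42, adjusted p = 0.0891), RLE scaling, the stricter filter, DESeq2 and limma-voom (adjusted p = 0.0501 to 0.0574). Leaving out any single DMSO library also ended it (-0.59 to -0.42, adjusted p = 0.0671 to 0.187), as did leaving out either BRM014 library at 6 h (adjusted p = 0.0677 for both).

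The paralogue Cry2 stood on the other side, at 11.5 and 11.3 CPM at 6 h and 15.5 and 15.1 CPM at 30 h in DMSO. Its groups did not overlap either, and its change of 0.43 ± 0.18 did not pass (adjusted p = 0.0858). Cry2 passed with library totals and with no filter. Per1 (-0.02 ± 0.13), Per2 (0.01 ± 0.20) and Tef (0.02 ± 0.18) had fitted values near 0 with overlapping libraries. Per3 was at 7.62 and 9.46 CPM at 6 h and 8.21 and 12.7 CPM at 30 h (0.30 ± 0.21, adjusted p = 0.291). Nr1d2 was at 59.7 and 64.6 CPM at 6 h and 42.4 and 59.6 CPM at 30 h (-0.28 ± 0.15, adjusted p = 0.152), so its late libraries were both lower but far apart from each other. Nr1d2 passed as lower when replicate 2 of DMSO at 30 h was left out.

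Under BRM014, Dbp and Per3 rose between 6 h and 30 h, no member fell and 8 did not pass. Over all tested genes 19.6% rose and 16.9% fell. A count of 2 risers among 10 members is near the share over all genes, and it became 0 when either BRM014 library at 6 h was left out. The median log2 fold change of the members was -0.05, against 0.01 over all tested genes. No library of this comparison is shared with the DMSO one.

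Dbp went from 105 and 146 counts (5.39 and 6.22 CPM) at 6 h to 207 and 414 counts (11.1 and 13.5 CPM) at 30 h with the inhibitor. Both late libraries were above both early ones, and the change was 1.08 ± 0.32 (adjusted p = 0.0180), or 2.12-fold. Its size was thus 1.16 in DMSO and 1.08 in BRM014 on the log2 scale, and the difference between these was -0.07 ± 0.47 (adjusted p = 0.953). With an SE of this size, the test does not show that the changes were equal. The Dbp call under BRM014 did not survive the loss of replicate 1 at 6 h (0.98, adjusted p = 0.121), of replicate 2 at 6 h (1.19, adjusted p = 0.0640) or of replicate 2 at 30 h (0.93, adjusted p = 0.111).

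Per3, a period gene thought to be less essential for the loop than its paralogues, was at 6.21 and 6.14 CPM at 6 h and at 10.6 and 11.1 CPM at 30 h in BRM014. The 2 libraries of each group were nearly equal and the groups lay far apart. The change was 0.81 ± 0.21 (adjusted p = 0.00992), or 1.76-fold. With replicate 1 or replicate 2 of BRM014 at 6 h left out, the rise of Per3 was 0.82 or 0.80 (adjusted p = 0.0630 or 0.0615). In DMSO the fitted change of Per3 was 0.30, and the difference between the changes was 0.51 ± 0.30 (adjusted p = 0.378), so a larger rise under the inhibitor was not shown.

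Per1 and Per2 moved apart with time under BRM014, although neither passed. Per1 was at 24.6 and 22.2 CPM at 6 h and 31.1 and 27.6 CPM at 30 h (0.33 ± 0.13, adjusted p = 0.0648). Per2 was at 9.34 and 7.38 CPM and then at 5.56 and 6.22 CPM (-0.49 ± 0.20, adjusted p = 0.0734). In both genes the libraries of the times did not overlap. Clock (-0.15 ± 0.12), Nr1d2 (-0.12 ± 0.14), Tef (0.13 ± 0.18) and Cry2 (0.01 ± 0.18) did not pass. Of these, Clock had both late libraries below both early ones. Cry1 did not pass (-0.33 ± 0.18, adjusted p = 0.171), with 16.8 and 16.4 CPM at 6 h and 10.5 and 15.6 CPM at 30 h. The late libraries of Cry1 were both below the early ones but far apart from each other, with replicate 2 close to the early libraries. The gene passed as lower when replicate 2 of BRM014 at 30 h was left out.

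**Figure D2:**
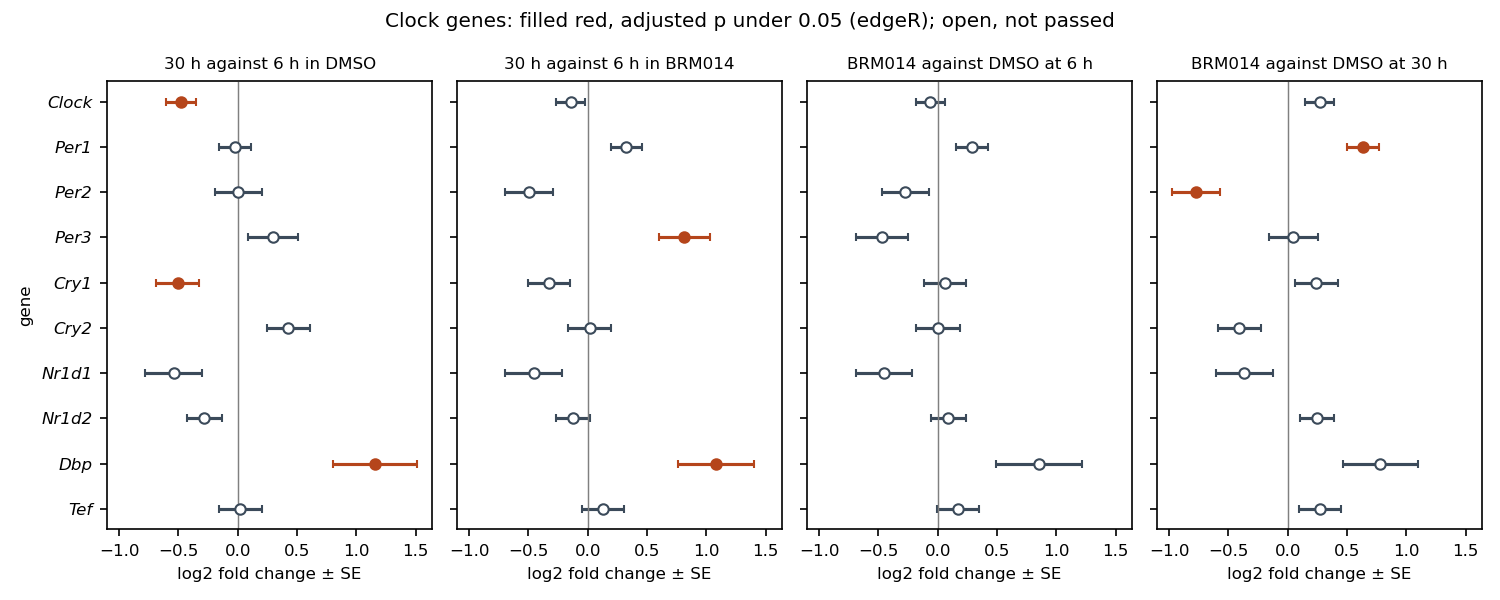
Log2 fold change ± SE of the 10 clock genes in 4 comparisons of 2 with 2 libraries, from the edgeR fit, with filled red points for adjusted p under 0.05. Dbp is right of 0 in each panel and passes in both time comparisons, while at 30 h Per1 (0.63) and Per2 (-0.77) pass on opposite sides.

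After 6 h of BRM014 no member passed against DMSO by edgeR, DESeq2 or limma-voom. Over all tested genes 9.35% rose and 14.4% fell. Dbp was the 1 member with an unadjusted p under 0.05. It was at 2.59 and 3.85 CPM in DMSO and 5.39 and 6.22 CPM in BRM014, with no overlap (0.85 ± 0.36, adjusted p = 0.107). Dbp passed with only the 4 libraries compared, with no filter, and when either DMSO library at 30 h was left out. Per1 (0.29 ± 0.13, adjusted p = 0.143), Tef (0.17 ± 0.18) and Cry1 also had both BRM014 libraries above both DMSO ones. Per3 (-0.47 ± 0.22, adjusted p = 0.147) had both below. With 2 libraries in each group, a lack of overlap alone carries little weight. Clock (-0.06 ± 0.12), Cry1 (0.06 ± 0.18), Cry2 (0.00 ± 0.18) and Nr1d2 (0.09 ± 0.15) had fitted values close to 0. The members' median was 0.03 and that of all tested genes -0.01. Among the genes that passed at 6 h 39.3% were higher, and 54.9% were when scaled by library totals.

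After 30 h of BRM014 the period genes Per1 and Per2 differed from DMSO in opposite directions. Per1 rose, Per2 fell and the other 8 members did not pass, against 16.8% of all tested genes that rose and 19.1% that fell. A count of 1 in each direction among 10 members is no higher than the share over all genes. The median of the members was 0.24, with 7 of 10 fitted values above 0. That of all tested genes was -0.00457, with 5862 of 11835 fitted values above 0.

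Per1, a PER repressor gene that also responds acutely to serum, hormones and cyclic AMP, was at 20.2 and 17.7 CPM in DMSO and 31.1 and 27.6 CPM in BRM014 at 30 h. The BRM014 libraries were well above the DMSO ones. The change was 0.63 ± 0.13 (adjusted p = 0.00216), or 1.55-fold. It passed under each of the 16 alternatives run, with 0.54 to 0.74 when 1 library was left out.

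Per2, a repressor whose loss shortens and then abolishes rhythms in mice, was at 10.1 and 10.2 CPM in DMSO and 5.56 and 6.22 CPM in BRM014 at 30 h. The libraries within each group were close together and the groups did not overlap. The change was -0.77 ± 0.20 (adjusted p = 0.00874), with a fold of 0.585. It was -0.70 (adjusted p = 0.0514) when replicate 1 of BRM014 at 30 h was left out, and Per2 passed under the other 15 alternatives.

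The ratio of Per1 to Per2 counts within a library does not depend on scaling between libraries. It was 2.28 and 1.61 in DMSO at 6 h and 2.01 and 1.73 in DMSO at 30 h. In BRM014 it was 2.63 and 3.01 at 6 h and 5.59 and 4.44 at 30 h. Each BRM014 library was thus above each DMSO library, and the BRM014 libraries at 30 h were above those at 6 h. The ratio was chosen after the values were seen and was not tested. The difference between the BRM014 effects at 30 h and at 6 h was 0.35 ± 0.19 for Per1 (adjusted p = 0.330) and -0.50 ± 0.28 for Per2 (adjusted p = 0.358).

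Of the other members at 30 h, Dbp was at 4.02 and 10.2 CPM in DMSO and 11.1 and 13.5 CPM in BRM014 (0.78 ± 0.32, adjusted p = 0.0702), without overlap. Clock (0.27 ± 0.12, adjusted p = 0.108) had both BRM014 libraries above both DMSO ones, and Cry2 (-0.41 ± 0.18, adjusted p = 0.0953) had both below, at 13.1 and 10.1 CPM against 15.5 and 15.1 CPM. Per3 (0.05 ± 0.21), Cry1 (0.24 ± 0.18), Nr1d2 (0.25 ± 0.15) and Tef (0.27 ± 0.18) overlapped between the groups. When replicate 2 of DMSO at 30 h was left out, Clock was at 0.47, Nr1d2 at 0.51, Dbp at 1.61 and Tef at 0.69. Per1 was at 0.54 and Per2 at -0.77 without this library. In that library Clock, Per3, Nr1d2, Dbp and Tef were higher than in DMSO 30 h replicate 1 by 0.39, 0.62, 0.49, 1.32 and 0.74 on the log2 scale. The difference of Dbp was at percentile 99.6 of all tested genes, and those of Per3, Nr1d2 and Tef were at percentiles 96.2, 93.8 and 97.4.

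Tef, a PAR bZIP activator like Dbp, was at 68.4 and 70.4 CPM in DMSO at 6 h, 52.6 and 87.9 CPM in DMSO at 30 h, 80.2 and 75.8 CPM in BRM014 at 6 h and 76.8 and 93.1 CPM in BRM014 at 30 h. Its DMSO libraries at 30 h lay below and above all others except replicate 2 of BRM014 at 30 h, which was the highest. Clock with BRM014 was at 112 and 107 CPM at 6 h and 101 and 97.0 CPM at 30 h. Nr1d2, the REV-ERB beta gene, was with BRM014 at 69.1 and 63.1 CPM at 6 h and 55.1 and 66.1 CPM at 30 h. The higher BRM014 library of each time lay above all 4 of its DMSO libraries, and the lower ones lay among them. In the remaining 6 h libraries Per1 was at 19.6 and 18.7 CPM and Per2 at 8.59 and 11.6 CPM with DMSO, and Cry2 at 13.1 and 9.81 CPM with BRM014.

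For none of the 10 members did the effect of BRM014 differ between 30 h and 6 h in edgeR, DESeq2 or limma-voom, which is the same test as whether the change with time differed between BRM014 and DMSO. No member had an unadjusted p under 0.05 there. Over all tested genes 3.89% passed as higher and 2.59% as lower.

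Nr1d1, which encodes the REV-ERB alpha repressor, did not pass in a comparison but showed a repeated difference between replicates. It passed as lower with time in DMSO when replicate 2 at 6 h or replicate 1 at 30 h was left out, and in all 4 comparisons with no filter. It was at 51.5 and 33.8 CPM in DMSO at 6 h, 34.6 and 24.2 CPM in DMSO at 30 h, 37.4 and 25.2 CPM in BRM014 at 6 h and 26.9 and 18.97 CPM in BRM014 at 30 h. Replicate 2 was at 0.656, 0.701, 0.672 and 0.705 of replicate 1 in these groups. A difference of 1 direction was not particular to Nr1d1. Replicate 2 was also below replicate 1 in each group for Per1 (0.954, 0.877, 0.904 and 0.889) and Cry2 (0.982, 0.974, 0.749 and 0.771). For Dbp it was above in each group (1.48, 2.52, 1.16 and 1.22). On the log2 scale the differences of Nr1d1 were -0.61, -0.51, -0.57 and -0.50, at percentiles 2.19 to 5.01 of all tested genes. The spread was thus large but of 1 direction, and taken by replicate number the order of the groups was DMSO at 6 h first and BRM014 at 30 h last in both sets. The fitted changes with time were -0.54 ± 0.24 in DMSO (adjusted p = 0.0938) and -0.45 ± 0.24 in BRM014 (adjusted p = 0.160). Against DMSO, the 6 h effect of BRM014 on Nr1d1 was -0.45 ± 0.24 (adjusted p = 0.195) and the 30 h effect was -0.36 ± 0.24 (adjusted p = 0.264).

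**Figure D3:**
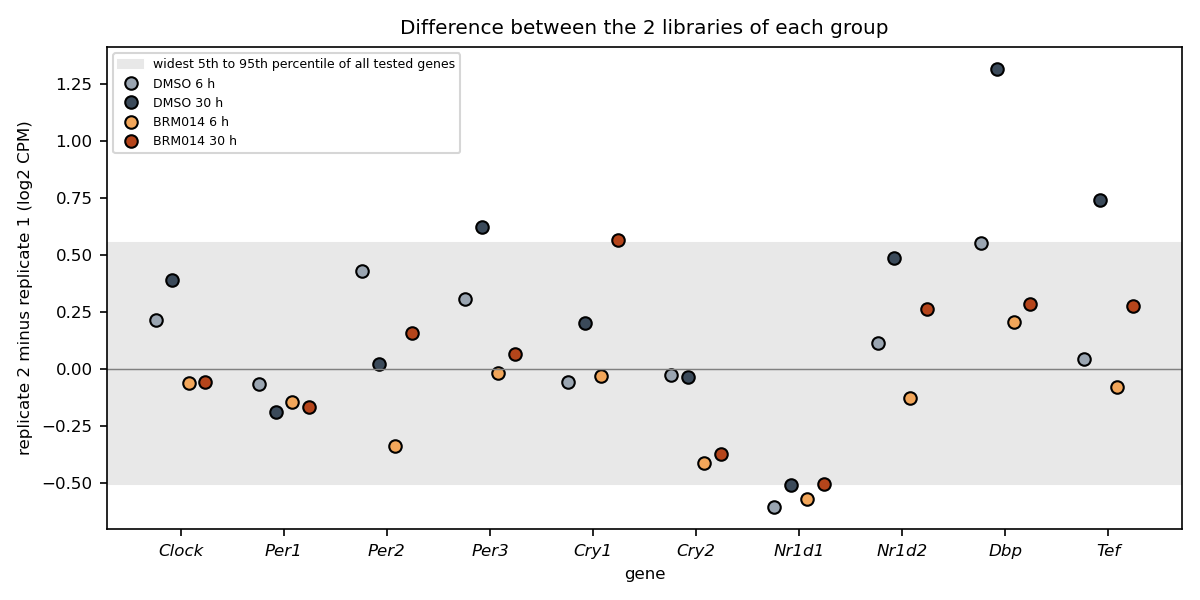
Replicate 2 minus replicate 1 in log2 CPM for each clock gene, with 1 point per group, over a grey band from -0.50 to 0.55 that spans the widest 5th to 95th percentile of all tested genes. Nr1d1 lies at or below the lower edge of the band in its 4 groups, and Dbp (1.32), Tef (0.74) and Per3 (0.62) in DMSO at 30 h lie above the band.

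Some members share exon sequence with a gene on the opposite strand in GENCODE M21, and the strand setting of the counting is not given. Dbp shares 539 bases (29.3% of its exons) with Sphk2, a sphingosine kinase gene, and Nr1d1 shares 263 bases (9.67%) with Thra, a thyroid hormone receptor gene. The libraries were stranded by their protocols, but if the counting ignored strand, reads from such partners are not told apart in these counts. Sphk2 was at 34.2 and 31.2 CPM in DMSO at 6 h, 39.8 and 35.0 CPM in DMSO at 30 h, 30.7 and 32.3 CPM in BRM014 at 6 h and 35.3 and 46.0 CPM in BRM014 at 30 h. Its changes with time were 0.19 ± 0.14 in DMSO (adjusted p = 0.295) and 0.37 ± 0.13 in BRM014 (adjusted p = 0.0445). In CPM, the mean of Sphk2 went from 32.7 to 37.4 in DMSO and from 31.5 to 40.7 in BRM014. The mean of Dbp went from 3.22 to 7.09 and from 5.81 to 12.3. How much of the Dbp count came from Sphk2 was not tested. Thra rose with time in DMSO (1.21 ± 0.11) and in BRM014 (1.26 ± 0.11), while the fitted values of Nr1d1 were negative. Cry2 and Tef shared 149 and 193 bases with an opposite transcript.

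Across the 8 libraries some members varied together in log2 CPM, which is given as a description since the libraries share groups and scaling. Clock and Nr1d2 had r = 0.855, Cry1 and Nr1d2 0.815, Nr1d2 and Tef 0.778 and Dbp and Tef 0.721. The most negative pairs were Nr1d1 with Dbp (-0.904), Per1 with Per2 (-0.874) and Cry1 with Cry2 (-0.750). Dbp had the widest range of group means, 1.92 on the log2 scale against 0.31 to 0.88 in the other members. Of 9756 ranked genes, those most like Dbp over 8 libraries were Rcan3 (r = 0.984), Kalrn (0.980), Evi5 (0.976), Clcn3 (0.973) and Atp1b1 (0.970), and those most opposed were Pinx1 (-0.987), Csrnp1 (-0.978), Bok (-0.972), Gadd45g (-0.971) and Lgals1 (-0.966).

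A further 25 genes of the pathway, listed by role with earlier results of these data known, place the members in the loop. Of these 23 were tested, and Npas2 and Hlf, with at most 1 count in a library, were not. With time in DMSO 0 rose by edgeR, DESeq2 or limma-voom and 7 fell by edgeR (18.0% and 17.2% of all tested genes), where 11 had an unadjusted p under 0.05 in either direction. Btrc passed as higher there with library totals (0.41) and when replicate 2 of DMSO at 30 h was left out (0.45). In BRM014 4 rose and 8 fell, against 19.6% and 16.9% of all tested genes. BRM014 against DMSO gave 4 higher and 3 lower at 6 h (9.35% and 14.4% of all) and 8 higher and 4 lower at 30 h (16.8% and 19.1% of all). The median log2 fold changes of the 23 genes in these comparisons were -0.17, -0.09, 0.02 and -0.03.

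Arntl, the gene of CLOCK's partner BMAL1, was lower after 6 h of BRM014. It was at 27.4 and 20.8 CPM in DMSO and 12.9 and 10.96 CPM in BRM014 (-1.02 ± 0.22, adjusted p = 0.00494). Clock itself, at -0.06, did not pass there. Arntl was at -0.77 (adjusted p = 0.0738) with replicate 1 of DMSO at 6 h left out and at -0.90 (adjusted p = 0.0669) with replicate 2 of BRM014 at 6 h left out. By 30 h in BRM014 Arntl was at 26.6 and 16.6 CPM, a rise with time of 0.84 ± 0.22 (adjusted p = 0.0104), and at 30 h it did not differ from DMSO by the test (-0.43 ± 0.21, adjusted p = 0.137). The rise was 0.72 (adjusted p = 0.0879) after removal of replicate 2 at 6 h and 0.47 (adjusted p = 0.138) after removal of replicate 1 at 30 h. In DMSO the change of Arntl with time was 0.25 ± 0.21 (adjusted p = 0.379). The difference between its BRM014 effects at 30 h and 6 h was 0.59 ± 0.31 (adjusted p = 0.317). A change of the effect between the times was thus not shown. In Arntl, as in Nr1d1, Per1, Cry2 and Nfil3 among others, replicate 2 was below replicate 1 in each group. The paralogue Arntl2 was at or below 2.01 CPM and passed in no comparison.

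Among the other repressors, Ciart, whose product binds the CLOCK and BMAL1 pair, was higher with BRM014 at both times. It was at 5.54 and 4.78 CPM in DMSO and 9.24 and 8.44 CPM in BRM014 at 6 h (0.77 ± 0.24, adjusted p = 0.0311). At 30 h Ciart was at 2.55 and 4.51 CPM against 7.76 and 8.73 CPM (1.21 ± 0.25, adjusted p = 0.00184). Removal of any single library of that time ended the 6 h call of Ciart (0.67 to 0.92, adjusted p = 0.0701 to 0.167). Bhlhe41, a repressor that competes for E-boxes, was lower with BRM014 at 6 h (-1.41 ± 0.18) and at 30 h (-1.42 ± 0.20), and lower at 30 h than at 6 h in DMSO (-0.86 ± 0.18) and in BRM014 (-0.88 ± 0.20). Its mean went from 21.0 CPM in DMSO at 6 h to 4.31 CPM in BRM014 at 30 h. The fall of Bhlhe41 in BRM014 was -0.74 (adjusted p = 0.0502) after removal of replicate 2 at 6 h. Its paralogue Bhlhe40, at 77.5 to 115 CPM, passed in no comparison.

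Rorb and Rora encode ROR receptors, which oppose REV-ERB at its element, and both had low counts. Rorb had 13 and 17 counts with DMSO at 30 h and 71 and 112 counts with BRM014 (2.35 ± 0.32, adjusted p = 7.86e-05), and rose with time in BRM014 (1.39 ± 0.29). Rora, at 9 to 42 counts, passed in no comparison with all libraries, and passed as higher with time in DMSO (1.5002, adjusted p = 0.0380) when replicate 1 at 30 h was left out.

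Nfil3, the gene of the repressor that competes with DBP and TEF at D-boxes, fell with time while Dbp rose. It went from 66.2 and 50.1 CPM to 39.0 and 32.7 CPM in DMSO (-0.70 ± 0.14, adjusted p = 0.00256) and from 72.2 and 65.8 CPM to 56.3 and 48.3 CPM in BRM014 (-0.40 ± 0.14, adjusted p = 0.0391). At 30 h it was higher in BRM014 than in DMSO (0.54 ± 0.14, adjusted p = 0.00953). The BRM014 fall of Nfil3 is uncertain, since it lost its call with library totals (-0.36, adjusted p = 0.0622) and with any single BRM014 library left out (-0.52 to -0.29). The DMSO fall of Nfil3 was -0.46 (adjusted p = 0.0535) after removal of replicate 1 at 6 h. Its 30 h difference was 0.42 (adjusted p = 0.0727) after removal of DMSO replicate 2 and 0.43 (adjusted p = 0.0766) after removal of BRM014 replicate 1.

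Of 4 output genes, Usp2, a deubiquitinase gene under direct clock control in many tissues, had 2 and 6 counts with DMSO at 6 h and 23 and 17 counts with BRM014 (2.16 ± 0.59, adjusted p = 0.0174). At 30 h it had 11 and 10 counts with DMSO and 27 and 45 counts with BRM014 (1.499 ± 0.46, adjusted p = 0.0218). At 6 h Usp2 lost its call after removal of DMSO replicate 1 (1.61, adjusted p = 0.141) or BRM014 replicate 1 (1.79, adjusted p = 0.128). At 30 h it lost its call with DESeq2 (adjusted p = 0.0847) and after removal of DMSO replicate 2 (1.27, adjusted p = 0.127) or of either BRM014 library (1.51 and 1.49, adjusted p = 0.0609 and 0.0916). Wee1, a mitotic kinase gene, fell with time in BRM014 (-0.57 ± 0.12, adjusted p = 0.00273). In DMSO the change of Wee1 was -0.35 ± 0.12 (adjusted p = 0.0370). That call is uncertain, since it ended with library totals (-0.26), DESeq2, only the 4 libraries compared, and removal of replicate 2 of DMSO at 6 h (-0.22), of either DMSO library at 30 h (-0.35 and -0.33) or of either BRM014 library at 6 h (-0.35 for both). Noct, a nocturnin phosphatase gene, fell with time in DMSO (-0.44 ± 0.14, adjusted p = 0.0246) and at 30 h was higher with BRM014 (0.55 ± 0.14, adjusted p = 0.00675). The fall of Noct ended with library totals (adjusted p = 0.0673) and after removal of either DMSO library at 6 h (-0.41 and -0.47) or of replicate 2 of DMSO at 30 h (-0.33). Its 30 h difference was 0.47 (adjusted p = 0.0505) after that last removal. Nampt passed in no comparison.

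**Figure D4:**
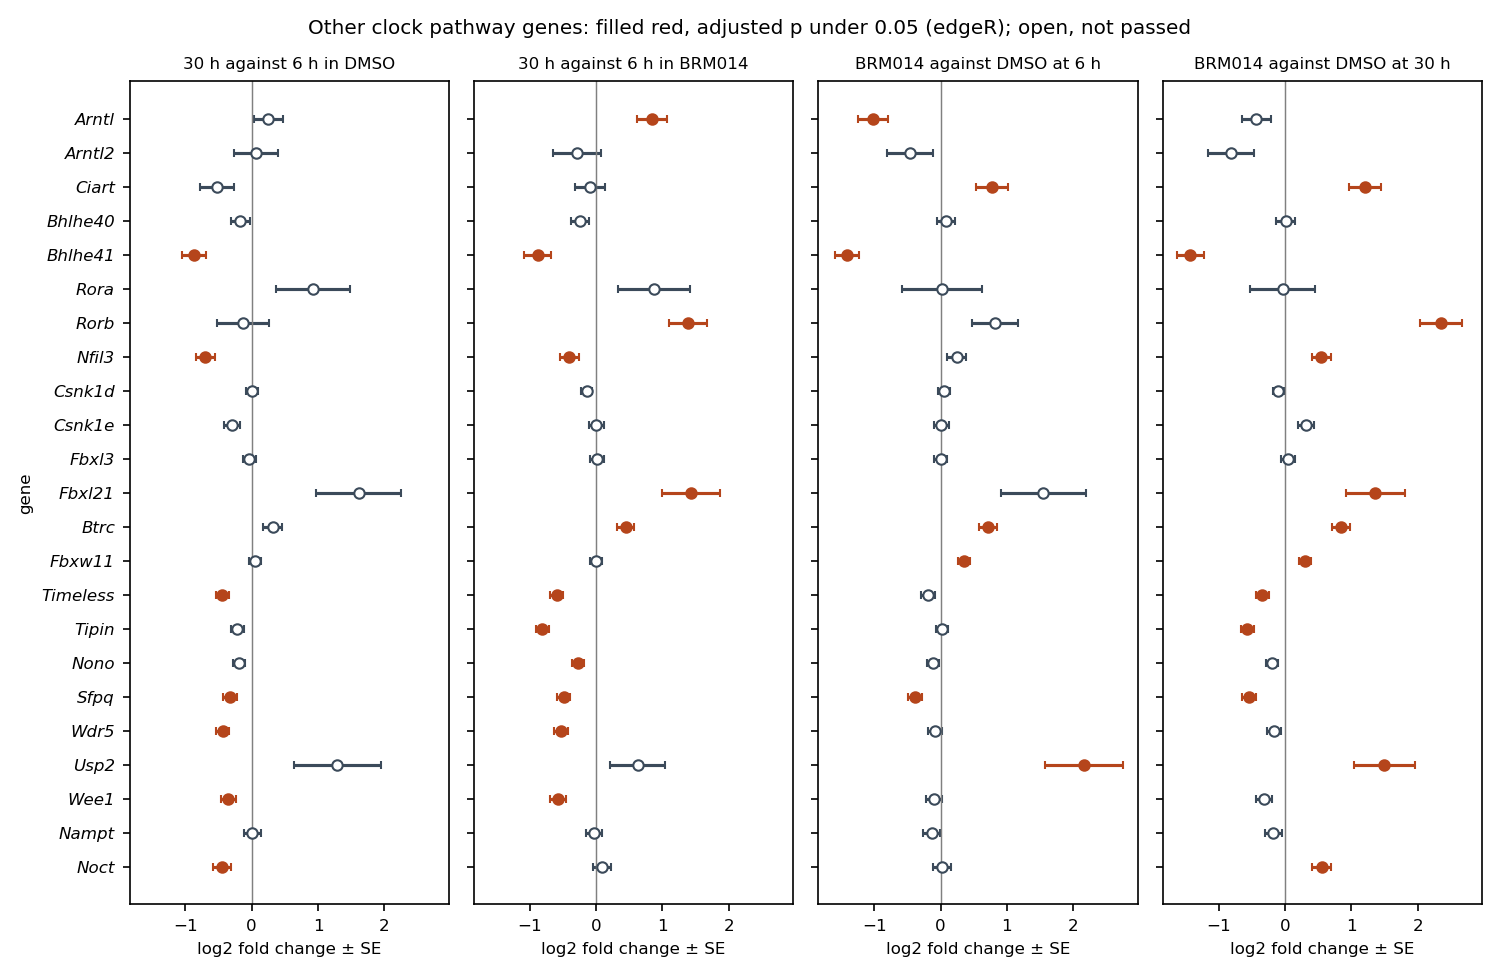
Log2 fold change ± SE of the 23 tested genes of the pathway other than the members, in 4 comparisons of 2 with 2 libraries, with filled red points for adjusted p under 0.05 in edgeR. Rorb is higher after 30 h of BRM014 (2.35), Arntl is lower after 6 h of BRM014 (-1.02), and Bhlhe41 lies left of 0 in each panel.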

How the data were processed

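A set of 8 libraries of NMuMG cells was compared. The authors deposited raw counts per gene with Entrez identifiers. Per the submitters' processing notes the tools were Subread, SAMtools 0.1.19 and featureCounts on build mm9. Per the labels' protocols, libraries were stranded total RNA, read from 1 end. The annotation and strand setting are not given in the sources used here.

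The deposited counts entered edgeR 4.0.16 (R 4.3.3). Genes passed filterByExpr (11835 of 21240), TMM factors were used, and a mean per group was estimated by quasi-likelihood over all 8 libraries. This left 4 residual degrees of freedom per gene, to which the fit adds information on spread borrowed across genes. Each SE from edgeR is the size of the log2 fold change divided by the square root of the test's F statistic. P-values were 2-sided, with Benjamini-Hochberg adjustment over all tested genes and a threshold of 0.05. Log2 CPM used a prior count of 2. DESeq2 1.42.0, limma-voom (limma 3.58.1), other scalings and filters, a replicate block and leaving out each library were alternatives. The fit was tested on simulated data. Poisson intervals cover counting error only. The members and lists were chosen with earlier results of these data known. All 10 members and the pathway genes of the activator, repressor, ROR, bZIP and output roles are named whether or not they passed, except 1 pathway gene that is not reported here. Genes most like or opposed to Dbp, the member with the widest range of group means, were the 5 with the highest and the 5 with the lowest correlation of log2 CPM over 8 libraries.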

Additional observations from a re-analysis of the deposited data

Results flagged for a closer look

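Tipin, whose product partners with TIMELESS at replication forks, was the 1 tested gene of the clock pathway, members included, for which the effect of BRM014 differed between the times by the interaction test in edgeR. The difference was -0.59 ± 0.14 (adjusted p = 0.0217). Over all tested genes 3.89% passed as higher and 2.59% as lower in this test. A count of 1 among the 10 members and 23 tested pathway genes is thus near the share over all genes. Tipin was at 119 and 107 CPM in DMSO at 6 h, 93.1 and 101 CPM in DMSO at 30 h, 111 and 118 CPM in BRM014 at 6 h and 67.1 and 64.1 CPM in BRM014 at 30 h, so the BRM014 libraries at 30 h were the lowest. Its call ended after removal of replicate 2 of DMSO at 6 h (-0.50, adjusted p = 0.0934), replicate 1 of BRM014 at 6 h (-0.63, adjusted p = 0.0666), replicate 2 of BRM014 at 6 h (-0.55, adjusted p = 0.118) or replicate 2 of BRM014 at 30 h (-0.55, adjusted p = 0.0898).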

How the results depend on the processing

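The 3 and 2 clock genes called with time in DMSO and in BRM014, and the 0 and 2 called for BRM014 at 6 h and 30 h, became 5, 4, 2 and 4 with no filter. Limma-voom called 1 with time in DMSO, and a fit of only the 4 libraries compared called 1 at 6 h. Leaving out 1 library at a time gave 1 to 3, 0 to 2, 0 to 1 and 2 to 6 clock genes. Over all genes it gave 2331 to 4223 with time in DMSO, 2227 to 4683 with time in BRM014, 1415 to 3144 for BRM014 at 6 h and 351 to 921 for the difference between the BRM014 effects, of which there were 766 with all libraries and 1309 with no filter. With the replicate number as a block, 5, 4, 2 and 5 clock genes were called and 1237 genes for that difference. Nr1d1 then passed as lower in all 4 comparisons (-0.53, -0.44, -0.44 and -0.36, adjusted p = 0.00113 to 0.0168). More of all tested genes were called for that difference both with no filter and with the block. The shares over all genes in the 4 comparisons are not given for these settings. The larger counts of clock genes are thus not read as a result about the clock genes. The labels do not say that a number marks a shared culture or day. Replicate 1 deviations correlated between groups by 0.011 to 0.201 over 11835 genes, so whether libraries of the same number share a source is not known, and the block was kept as an alternative. For the clock and pathway genes that passed, 293 of the leave-one-out values kept their call and 75 lost it, as did 346 and 17 under the other settings, and no direction reversed. Causes were not tested.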
